A study of Homo sapiens with 6 samples.

Results

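The genes described here are 31 targets of the androgen receptor, listed by symbol and matched through GENCODE 29 to 31 of the 58735 genes of a human prostate cancer RNA-seq table. No measured value enters the rule. Messenger RNA was sequenced from 6 libraries of 2 cell lines, 3 per line. C4-2B MDVR was derived from the C4-2B prostate cancer line and resists enzalutamide, a drug that blocks the androgen receptor. H660 models neuroendocrine prostate cancer. The 3 libraries of a line carry the control siRNA, PLXND1 siRNA 1 and PLXND1 siRNA 2, so none is of cells without an siRNA. PLXND1 encodes Plexin D1, a semaphorin receptor, and the series concerns its place in the change of treatment-resistant prostate cancer towards a neural state. Each condition is 1 cell line with no repeat of a control or of an siRNA, and nothing in the labels states that cultures were separate. The spread behind the p-values comes from siRNA 1 against siRNA 2 within each line, wholly for the siRNA tests and in part for the line test. It mixes the difference between the siRNAs with technical spread, and it may not cover the spread between separate cultures. The hormone and enzalutamide content of the medium is not given in the sources used here.

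The androgen receptor is a nuclear receptor that androgens release from its chaperones. It then binds DNA as a dimer at androgen response elements, which are paired copies of a short motif in inverted orientation across a spacer, and recruits coactivators. Pioneer and lineage factors such as FOXA1 and HOXB13 open or mark many of these sites in prostate cells. The targets include the secreted proteins by which prostate tissue is recognised, above all KLK3, which encodes prostate-specific antigen. Neuroendocrine prostate cancers typically lose this programme.

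The sequences upstream of KLK3 and KLK2 are shown because these neighbouring genes were among the members that differed most between the lines and between the siRNAs. KLK3 lies at chr19:50854915-50860764 and KLK2 at chr19:50861568-50880567 in GRCh38, both on the plus strand. Each run below is the 250 bases before the RefSeq start in GRCh38.p14, at chr19:50854665-50854914 for KLK3 and chr19:50873189-50873438 for KLK2. Capitals mark the best match to the 15-letter androgen response element, which is AGAACA, then 3 free letters, then TGTTCT, so that 12 letters are fixed.
KLK3: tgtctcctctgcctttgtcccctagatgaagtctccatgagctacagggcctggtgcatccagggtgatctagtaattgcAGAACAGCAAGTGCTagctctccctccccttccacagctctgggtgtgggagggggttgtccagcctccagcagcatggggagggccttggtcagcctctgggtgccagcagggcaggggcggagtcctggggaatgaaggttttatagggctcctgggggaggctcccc
KLK2: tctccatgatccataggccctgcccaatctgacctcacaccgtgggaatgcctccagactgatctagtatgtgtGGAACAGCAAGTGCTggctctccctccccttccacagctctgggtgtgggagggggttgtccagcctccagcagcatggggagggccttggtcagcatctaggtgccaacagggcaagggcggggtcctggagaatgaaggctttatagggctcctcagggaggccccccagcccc
With positions counted from 1 at the 5′ end of the element, the KLK3 match, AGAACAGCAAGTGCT, differed from the motif by T10A and T13G and lay 170 to 156 bases before the start. The KLK2 match, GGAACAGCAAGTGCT, differed by A1G, T10A and T13G and lay 176 to 162 bases before the start. Base for base, the 2 elements differed only by A1G, and in a global alignment of the 250 upstream bases 205 were identical. The RefSeq start of KLK2 lies downstream of the start of its gene model in GENCODE 29.

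Of the 31 members, 23 had an upstream sequence in the RefSeq table, and few of these held the motifs searched. The element with up to 2 of its 12 fixed letters changed, searched on both strands, was in 1 of 23 (KLK3), against 1.19% of all 27305 upstream sequences. With up to 3 letters changed it was in 4 of 23, against 9.34% of all; the others were KLK2, TRPM8 and FKBP5. The 6-letter arm AGAACA, which is part of the element, was in 1 of 23 on either strand (KLK3), against 12.4% of all. The 7-letter forkhead motif TGTTTAC was in 0 of 23, against 2.98% of all. These counts describe the letters of this window only.

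The libraries held 17657328 to 24106919 fragments assigned to genes. PLXND1 was at 7.40, 1.57 and 3.10 FPKM in the C4-2B MDVR control, siRNA 1 and siRNA 2 libraries, so it was at 21.2% and 41.8% of the control. In H660 it was at 9.13, 7.62 and 7.54 FPKM, or 83.5% and 82.6% of the control. FPKM is the number of fragments scaled by exon length and by library size. The neuroendocrine markers CHGA, SYP, INSM1, SCG3 and NCAM1 were at 4.77 FPKM or more in every H660 library and at 0.324 FPKM or less in every C4-2B MDVR library, and ENO2 was at 33.1 to 37.1 FPKM against 3.44 to 5.24 FPKM. Of the basal markers, KRT5 had 0 fragments throughout, and the summed basal level was at most 0.0958 FPKM except for 1.22 FPKM in the C4-2B MDVR siRNA 1 library. Of the stromal, endothelial and blood cell markers, COL1A1 was at 1.17 to 5.06 FPKM and the other 4 were at 0.0350 FPKM or less. The mitochondrial share of fragments was 3.38% in the control of C4-2B MDVR and 6.83% to 9.64% in the other 5 libraries.

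Most of the 31 genes were far higher in C4-2B MDVR than in H660. The limma test with a difference of at least 1 log2 unit found 21 of the 30 members tested lower in H660, where 17.9% of all 15638 genes tested were called lower. It found 2 of 30 higher, TRPM8 and MAF, where 20.1% of all genes were called higher. All differences between the lines are given as H660 minus C4-2B MDVR on the log2(FPKM + 1) scale, with the SE and an adjusted p from limma, and genes at low levels are understated by that scale. The median difference was −1.96 for the members and 0.00 for all genes tested. All 3 C4-2B MDVR libraries lay above all 3 H660 libraries for 22 of 30 members, against 37.4% of all genes tested, and the reverse held for TRPM8, MAF and NCAPD3, against 37.1%. By mean FPKM, 18 members were at 1 or more in both lines, 9 in C4-2B MDVR alone, 3 (ACPP, TRPM8 and MAF) in H660 alone, and PTGER4 in neither, which is why it was not tested. Summed over the members, the level was 1303, 1558 and 882 FPKM in the C4-2B MDVR control, siRNA 1 and siRNA 2 libraries and 118, 114 and 112 FPKM in the H660 ones. In bulk RNA, fewer cells making a transcript and less transcript per cell cannot be told apart. With 1 line of each kind, the identity of the line and its disease state cannot be told apart either.

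**Figure D1:**
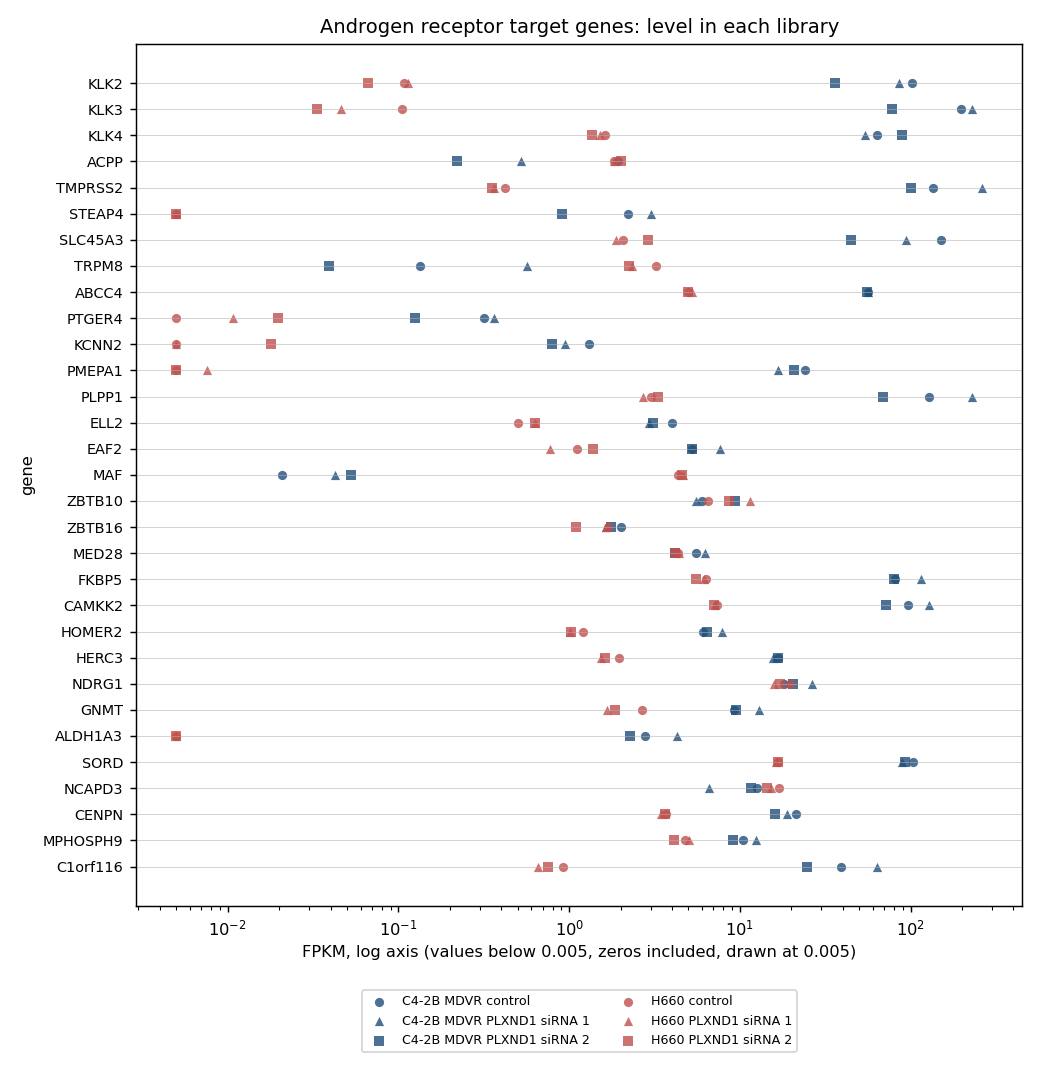
Level of each of the 31 androgen receptor target genes in the 6 libraries, in FPKM on a log axis, grouped by role from top to bottom; blue marks C4-2B MDVR and red H660, and values below 0.005 are drawn at 0.005. The 3 blue points lie above the 3 red points for 22 of the 30 genes tested, and the blue points of KLK2, KLK3, TMPRSS2 and PLPP1 are spread more widely than those of ABCC4 or SORD.

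The secreted proteases included KLK3, the member with the widest gap between the lines on the log2(FPKM + 1) scale. KLK3 was at 197, 228 and 77.5 FPKM in the C4-2B MDVR control, siRNA 1 and siRNA 2 libraries and at 0.104, 0.0459 and 0.0335 FPKM in the H660 ones. The groups did not overlap, with a difference of −7.17 ± 0.38 (limma adjusted p = 2.32e-05), and the H660 level rested on 21 fragments over 3 libraries. KLK2, a protease that can activate prostate-specific antigen, was at 102, 85.0 and 36.2 FPKM against 0.107, 0.113 and 0.0668 FPKM. Its difference was −5.98 ± 0.34 (limma adjusted p = 2.85e-05), again with no overlap. KLK4, a protease of prostate and of developing tooth enamel, was at 63.7, 54.2 and 89.7 FPKM against 1.63, 1.52 and 1.36 FPKM. It differed by −4.78 ± 0.20 and, unlike KLK2 and KLK3, stayed above 1 FPKM in every H660 library. ACPP, which encodes prostatic acid phosphatase, was at 1.93, 0.521 and 0.220 FPKM in C4-2B MDVR and at 1.83, 1.83 and 2.01 FPKM in H660. The C4-2B MDVR control thus lay among the H660 libraries, and the difference of 0.71 ± 0.26 was under 2-fold (limma adjusted p = 0.0462). With any 1 siRNA library left out the limma adjusted p of ACPP was 0.102 to 0.153, and without either control the difference was 1.10, past the 2-fold rule. The limma adjusted p of ACPP was also above the threshold of 0.05 with a pseudocount of 0.1 (0.0540), no filter (0.117), quantile normalization (0.132), voom (0.0608) and the replicate block (0.0551), and with rescaling it was 0.0163.

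Among the 9 membrane proteins 8 were tested, and 6 were called lower in H660 and 1 higher. For this and every other group of members or cofactors, the shares over all genes remain 17.9% lower and 20.1% higher. TMPRSS2, a cell-surface protease whose promoter is fused to ERG in many prostate cancers, was at 135, 263 and 101 FPKM in C4-2B MDVR and at 0.423, 0.362 and 0.355 FPKM in H660 (−6.80 ± 0.34). SLC45A3, or prostein, another fusion partner, was at 151, 94.1 and 44.9 FPKM against 2.06, 1.88 and 2.88 FPKM (−4.75 ± 0.38). PLPP1, a lipid phosphatase, was at 128, 230 and 68.6 FPKM against 3.03, 2.70 and 3.31 FPKM (−4.99 ± 0.42). In these 3 genes the spread among the C4-2B MDVR libraries was wide, but the lowest of them remained far above the highest H660 library. The span of PLPP1 overlaps that of MTREX on the opposite strand, at 6.24 to 9.38 FPKM in C4-2B MDVR and 9.67 to 11.1 FPKM in H660.

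PMEPA1, an adaptor that dampens TGF-beta signalling, was at 24.0, 16.8 and 20.8 FPKM in C4-2B MDVR and had 1 fragment in H660, in the siRNA 1 library (−4.41 ± 0.14). ABCC4, an exporter of cyclic nucleotides and drugs, was the steadiest member in C4-2B MDVR relative to its level, at 56.6, 56.5 and 55.7 FPKM against 4.96, 5.21 and 4.95 FPKM in H660 (−3.25 ± 0.10). STEAP4, a metalloreductase, was at 2.23, 3.03 and 0.909 FPKM, and in H660 it had 1 fragment, in the control (−1.54 ± 0.28). None of these genes overlapped between the lines. KCNN2, a calcium-activated potassium channel, was at 1.31, 0.949 and 0.797 FPKM and had fragments in 1 H660 library (siRNA 2, 0.0179 FPKM). Its difference passed the test (limma adjusted p = 0.00106) and lay just under the 2-fold rule, which it reached without the C4-2B MDVR siRNA 2 library (−1.06) or the H660 siRNA 1 (−1.02) or siRNA 2 (−1.03) library. KCNN2 lies at that limit through the pseudocount of 1: with a pseudocount of 0.1 the difference was −3.38, with voom on the recovered fragments −7.28, and the mean FPKM of C4-2B MDVR was 170-fold that of H660, which rested on 3 fragments. PTGER4, a receptor for prostaglandin E2, was at 0.317, 0.364 and 0.124 FPKM against 0, 0.0107 and 0.0196 FPKM.

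TRPM8, the cold-sensing channel, went the other way. It was at 0.134, 0.565 and 0.0390 FPKM in C4-2B MDVR, from 22, 90 and 5 fragments, and at 3.21, 2.32 and 2.24 FPKM in H660 (1.54 ± 0.21, limma adjusted p = 0.000882). MAF, a basic leucine zipper transcription factor, did so too, at 0.0207, 0.0427 and 0.0530 FPKM against 4.33, 4.64 and 4.60 FPKM (2.41 ± 0.11, limma adjusted p = 1.27e-05). For both genes every H660 library exceeded every C4-2B MDVR library. These 2 members therefore do not share the direction of KLK2 and KLK3 between the lines.

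The transcription regulators were the group with the fewest calls in relation to its size, with 2 of 6 lower, 1 higher and 3 not called. ELL2, an elongation factor, was at 4.01, 2.95 and 3.09 FPKM in C4-2B MDVR and 0.502, 0.633 and 0.630 FPKM in H660 (−1.45 ± 0.14). Its partner EAF2 was at 5.26, 7.60 and 5.22 FPKM against 1.12, 0.769 and 1.38 FPKM (−1.74 ± 0.19). Both were above H660 in every C4-2B MDVR library. ZBTB10, a zinc finger repressor, was at 5.97, 5.55 and 9.37 FPKM against 6.48, 11.4 and 8.69 FPKM. ZBTB16, the zinc finger factor PLZF, was at 2.01, 1.65 and 1.75 FPKM against 1.69, 1.64 and 1.10 FPKM, and MED28, a Mediator subunit, at 5.50, 6.28 and 4.15 FPKM against 4.37, 4.41 and 4.18 FPKM. The lines overlapped in these 3 genes, whose differences were 0.31 ± 0.21, −0.18 ± 0.13 and −0.23 ± 0.15 (limma adjusted p = 0.227, 0.252 and 0.218).

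FKBP5, a cochaperone that acts on HSP90 with steroid receptors, was at 80.5, 115 and 80.3 FPKM in C4-2B MDVR and 6.32, 6.15 and 5.53 FPKM in H660 (−3.71 ± 0.17). CAMKK2, a kinase that activates AMPK, was at 96.9, 129 and 72.3 FPKM against 7.32, 7.18 and 7.01 FPKM (−3.58 ± 0.21). Both were above 5 FPKM in every H660 library, where KLK2 and KLK3 were near 0. HERC3, of a ubiquitin ligase family, was at 16.7, 15.6 and 16.7 FPKM against 1.96, 1.54 and 1.63 FPKM (−2.68 ± 0.10). HOMER2, a synaptic scaffold protein, was at 6.08, 7.81 and 6.39 FPKM against 1.20, 1.02 and 1.03 FPKM (−1.89 ± 0.13). NDRG1, a stress-responsive gene, was at 18.2, 26.5 and 20.5 FPKM against 19.7, 15.8 and 17.1 FPKM. Its lines overlapped, and the difference of −0.28 ± 0.17 did not pass (limma adjusted p = 0.180).

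All 3 metabolic enzymes were lower in H660. SORD, sorbitol dehydrogenase, was at 103, 89.3 and 92.6 FPKM in C4-2B MDVR and 16.7, 16.3 and 16.8 FPKM in H660 (−2.44 ± 0.10), but it shares 23.5% of its 75-base stretches with the pseudogene SORD2P, so its level is uncertain. GNMT, a methyltransferase that uses S-adenosylmethionine, was at 9.27, 13.0 and 9.48 FPKM against 2.68, 1.67 and 1.85 FPKM (−1.92 ± 0.19). ALDH1A3, which makes retinoic acid, was at 2.78, 4.28 and 2.27 FPKM and had 0 fragments in H660 (−2.01 ± 0.20). Set against a floor of 3 fragments over the H660 libraries, it was at least 443-fold higher in C4-2B MDVR. The span of GNMT overlaps that of PEX6 on the opposite strand, which was at 4.78 to 6.22 FPKM in C4-2B MDVR and 21.7 to 22.3 FPKM in H660. Whether they share exon bases was not examined, and no source used here says whether strand was used in counting.

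Of the genes of chromosomes and cell division, CENPN, of the inner kinetochore, was at 21.4, 18.9 and 16.1 FPKM in C4-2B MDVR and 3.67, 3.43 and 3.67 FPKM in H660 (−2.10 ± 0.12). MPHOSPH9, a centrosomal protein, was at 10.5, 12.4 and 9.09 FPKM against 4.75, 5.04 and 4.10 FPKM (−1.04 ± 0.15), close to the 2-fold limit. Without the C4-2B MDVR siRNA 1 library it was −0.92, and without the H660 siRNA 2 library −0.97, both under that limit. NCAPD3, a condensin II subunit, was at 12.6, 6.62 and 11.7 FPKM against 17.0, 15.2 and 14.5 FPKM. It was thus higher in all 3 H660 libraries by less than 2-fold (0.59 ± 0.20, limma adjusted p = 0.0387). The limma adjusted p of NCAPD3 was 0.131 and 0.117 without the H660 siRNA 1 or siRNA 2 library and 0.0881 and 0.0897 without the C4-2B MDVR or H660 control, and 0.0855 with no filter on low values. C1orf116, known as a specifically androgen-regulated gene, was at 38.9, 63.5 and 24.7 FPKM against 0.925, 0.657 and 0.755 FPKM (−4.51 ± 0.33). The spans of CENPN, MPHOSPH9 and NCAPD3 overlap those of other expressed genes, on the same strand in part for CENPN and MPHOSPH9. Whether exon bases are shared was not examined.

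**Figure D2:**
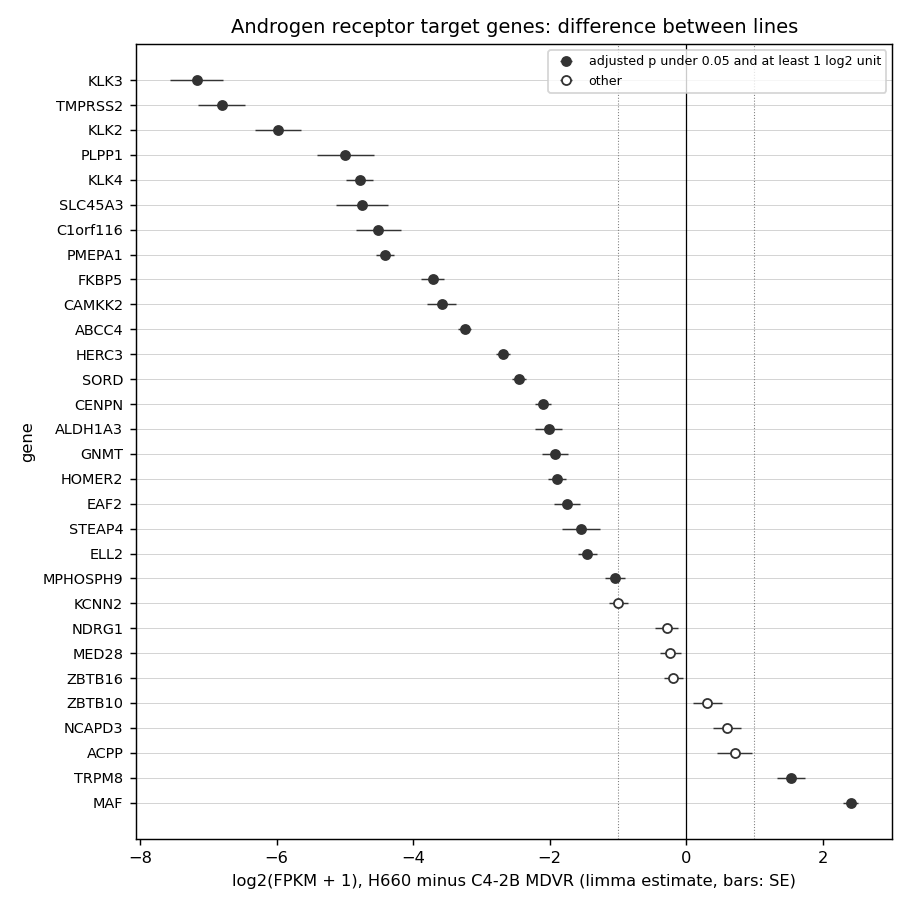
Difference between the lines for the 30 members tested, as the limma estimate of H660 minus C4-2B MDVR on the log2(FPKM + 1) scale with its SE; filled points passed the test with at least 1 log2 unit. The filled points are 21 genes to the left, from KLK3 at −7.17 to MPHOSPH9 at −1.04, and TRPM8 and MAF to the right.

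In C4-2B MDVR the 2 siRNAs went with different levels of the target genes. On the log2(FPKM + 1) scale, KLK2, KLK3 and SLC45A3 were at least 2-fold lower with siRNA 2 than with the control. None of the 27 members compared was 2-fold away from the control with siRNA 1. With 1 library per condition these are differences between libraries with no test; members count as different where log2(FPKM + 1) differed by at least 1, among the 27 members with a mean of at least 1 FPKM in the line. With siRNA 1, 0 of 27 were 2-fold higher and 0 lower, against 2.59% and 1.3% of 12888 genes. With siRNA 2, 0 were higher and 3 lower, against 1.84% and 1.43%. Between the siRNA libraries themselves, 7 of 27 were 2-fold lower with siRNA 2 than with siRNA 1 and 0 were higher, against 2.81% and 1.91%. These 7 were KLK2, KLK3, TMPRSS2, STEAP4, SLC45A3, PLPP1 and C1orf116. No member was 2-fold away from the control in the same direction with both siRNAs, against 0.791% of genes higher and 0.341% lower.

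As ratios of FPKM with 95% exact binomial intervals, which cover counting error only, KLK3 was at 115% of the control with siRNA 1 (113 to 118) and at 39.2% with siRNA 2 (38.1 to 40.4). KLK2 was at 83.4% (81.3 to 85.6) and 35.6% (34.3 to 36.9), so both libraries were below the control. SLC45A3 was at 62.4% (60.6 to 64.3) and 29.8% (3.36-fold lower, 3.22 to 3.51), the lowest siRNA 2 value of the 27. In all 3 genes the siRNA 2 library was below the other 2. The library with siRNA 2 retained more PLXND1 transcript than that with siRNA 1, at 41.8% against 21.2% of the control.

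The membrane proteins TMPRSS2, PLPP1 and STEAP4, and C1orf116 of no named role group, lay above the control with siRNA 1 and below it with siRNA 2. TMPRSS2 was at 194% of the control with siRNA 1 (191 to 198) and 74.8% with siRNA 2 (73.0 to 76.7). PLPP1 was at 180% (174 to 186) and 53.6% (51.0 to 56.3), and C1orf116 at 164% (157 to 170) and 63.7% (60.5 to 67.0). STEAP4, with far fewer fragments, was at 136% and 40.8% (34.1 to 48.7). The siRNA 2 library was therefore at 38.5% of the siRNA 1 library for TMPRSS2, 29.8% for PLPP1, 38.9% for C1orf116 and 30.0% for STEAP4. By sign, 11 of 27 members lay above the control with siRNA 1 and below it with siRNA 2, against 19.5% of genes, although EAF2 and FKBP5 were almost level with the control with siRNA 2. Among the luminal prostate markers reported here, HOXB13 and the keratins KRT8 and KRT18, which are not members, had the pattern of these 11, and FOXA1 did not. KRT8 was at 77.4, 134 and 74.8 FPKM and KRT18 at 89.8, 120 and 79.5 FPKM in the control, siRNA 1 and siRNA 2 libraries. The part of the luminal markers in the levels of the members was not tested. KLK4 and ZBTB10 did the reverse of the 11, 2 of 27 against 21% of genes. KLK4 was at 85.1% of the control with siRNA 1 and 141% with siRNA 2 (133 to 149), unlike its neighbours KLK2 and KLK3.

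A further 11 of 27 members lay below the control with both siRNAs, against 25.6% of genes, and 3 (HOMER2, NDRG1 and GNMT) above it with both, against 33.8%. Many of these differences were small: ABCC4 with siRNA 2 was at 98.5% of its level with siRNA 1, and HERC3 at 99.9% of the control with siRNA 2. NCAPD3 had its low value with siRNA 1, at 52.5% of the control (48.9 to 56.3), and was at 92.4% with siRNA 2. In all, 14 of 27 members were above the control with siRNA 1 (53.4% of genes were) and 22 of 27 were below it with siRNA 2 (45.1% of genes were). The median difference was 0.16 log2 units with siRNA 1, where that of all genes was 0.03, and −0.20 with siRNA 2, where that of all genes was 0.04. Between the siRNA libraries it was −0.41 for the members and 0.00 for all genes, and 19 of 27 members were lower with siRNA 2 than with siRNA 1 (49.9% of genes were). KLK2 and KLK3 together gave 23.0%, 20.1% and 12.9% of the summed member level in the control, siRNA 1 and siRNA 2 libraries.

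By role, the median with siRNA 2 was −1.34 log2 units for the 3 secreted proteins in this comparison, −0.42 for 7 membrane proteins and −0.13 for 5 transcription regulators. For the 5 genes of the chaperone and kinase group it was 0.00, for the 3 metabolic enzymes −0.15 and for the 3 genes of chromosomes and cell division −0.18. All 7 membrane proteins were below the control with siRNA 2, whereas with siRNA 1 they split into 3 above and 4 below. FKBP5 was at 143% with siRNA 1 and 99.7% with siRNA 2, and CAMKK2 at 133% and 74.5%. The group medians are descriptions of a few genes each.

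**Figure D3:**
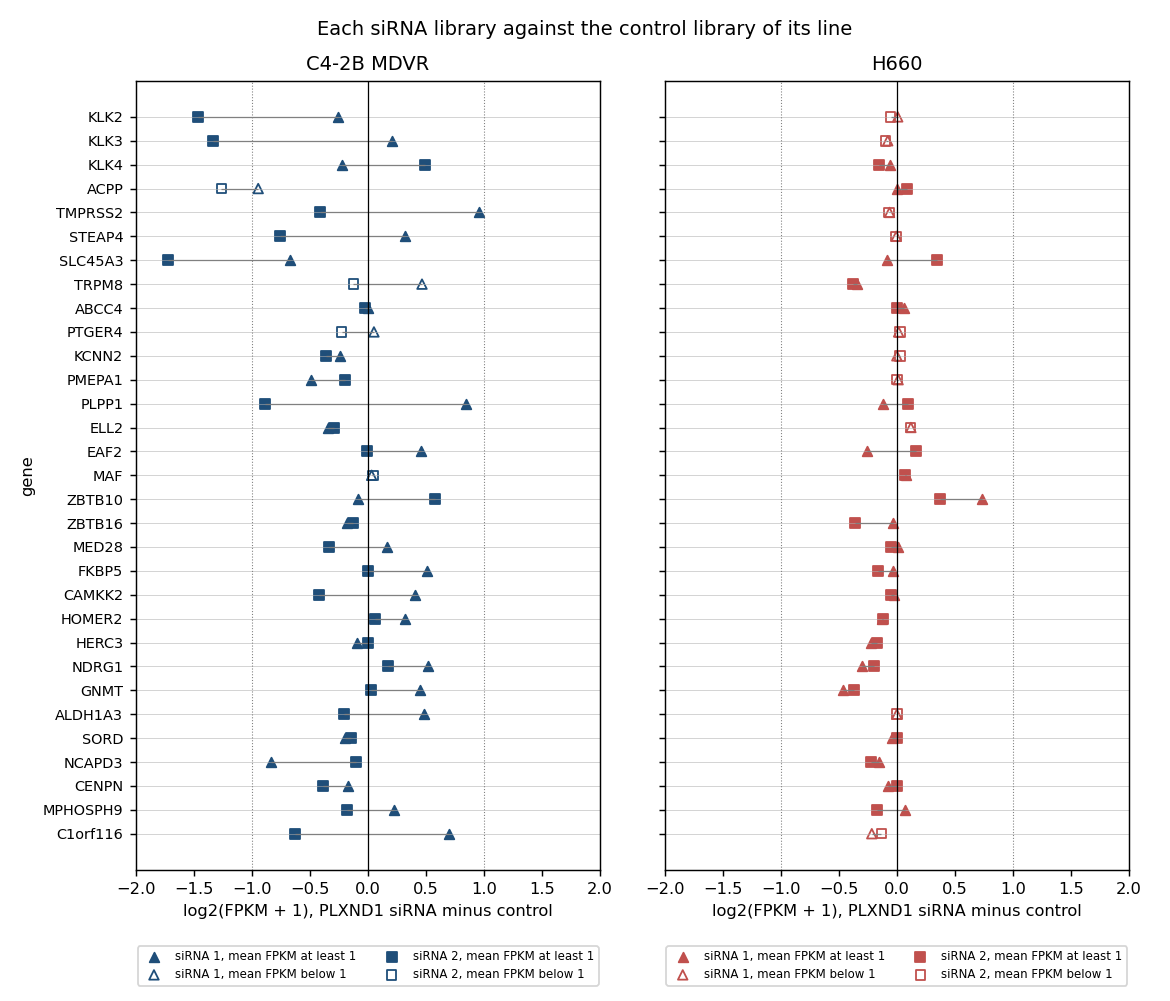
Difference of each siRNA library from the control library of its line for the 31 genes, as log2(FPKM + 1), in C4-2B MDVR (left) and H660 (right); triangles are siRNA 1, squares siRNA 2, and open symbols mark genes with a mean below 1 FPKM in that line. In C4-2B MDVR the filled squares of KLK2, KLK3 and SLC45A3 and the open square of ACPP lie beyond −1 and 11 filled pairs straddle 0 with the triangle on the right, whereas in H660 no symbol lies beyond 1 in either direction.

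When both siRNA libraries were taken as the knockdown group, no member passed in C4-2B MDVR. Neither did PLXND1 itself, at −1.37 ± 0.31 log2 units, nor any interferon response marker tested, with a median of 3.23 log2 units. The absence of calls therefore does not show that the members were unchanged. The limma test called 0 of 30 members higher and 0 lower after adjustment, as it did for 0% of the 15638 genes in each direction. At an unadjusted p under 0.05 it had 1 member, ACPP, lower and 0 higher, against 2.15% and 3.74% of genes, and limma's voom on the recovered fragments also gave 0 members after adjustment. ACPP had 168 fragments in the control, 44 with siRNA 1 and 15 with siRNA 2, so it was at 27.0% of the control (18.9 to 37.8) and 11.4% (6.24 to 19.3). Both siRNA libraries were below the control, by −1.11 ± 0.21 log2 units on average (limma adjusted p = 0.586), at a mean level below 1 FPKM. SLC45A3 was at −1.20 ± 0.49 (limma adjusted p = 0.865), KLK2 at −0.86 ± 0.52 (limma adjusted p = 0.912) and KLK3 at −0.57 ± 0.66 (limma adjusted p = 0.990). The SE of KLK3 was larger than its difference. For KLK3 without the siRNA 2 library the estimate turned to 0.20, the value of the siRNA 1 library alone.

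The interferon response markers moved with the siRNAs in C4-2B MDVR, with a summed level of 103 FPKM in the control, 789 with siRNA 1 and 494 with siRNA 2, against 103 to 109 FPKM in the H660 libraries. Of these 8 markers, 7 were above the control with both siRNAs in C4-2B MDVR, and the other, MX1, was at 0.314 to 0.398 FPKM. The share of mitochondrial fragments there was 3.38%, 7.44% and 6.83%. The part of either in the levels of the androgen receptor targets was not tested. With short RNAs and mitochondrial genes left out and the libraries rescaled, the number of members 2-fold lower was 4 with siRNA 2 against the control and 7 between the siRNAs.

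In H660 the members stayed close to the control with both siRNAs, in a line where PLXND1 itself remained above 80% of the control. Of the 21 members with a mean of at least 1 FPKM, 0 were 2-fold higher or lower with siRNA 1, against 1.21% and 0.982% of 13946 genes. With siRNA 2 it was 0 in each direction too, against 0.925% and 0.774%, and between the siRNA libraries 0 against 1.03% and 0.99%. The median difference was −0.06 log2 units with siRNA 1 and −0.05 with siRNA 2, where those of all genes were −0.02 and −0.01. By sign, 16 of 21 members were below the control and 5 above it with siRNA 1, where 53.9% of genes were below. With siRNA 2 these numbers were 14 and 7, where 51.1% of genes were below. By the mean of both siRNA differences, ZBTB10 was farthest above its control, at 177% with siRNA 1 (166 to 188) and 134% with siRNA 2 (126 to 143). By the same mean GNMT was farthest below, at 62.3% (41.5 to 92.5) and 69.0% (47.2 to 100.3), the second interval reaching the control. TRPM8 was next, at 72.2% (63.7 to 81.7) and 69.7% (61.6 to 78.7), with both intervals below the control. SLC45A3 was at 91.4% with siRNA 1 and 140% with siRNA 2, so its siRNA 2 library lay above the control here and below it in C4-2B MDVR.

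The limma test in H660 called 0 of 30 members in either direction, as for 0% of all genes, and 0 had an unadjusted p under 0.05, against 2.86% of genes higher and 1.28% lower. Of these 30 members, 9 had a mean below 1 FPKM in H660, and those near 0 could hardly differ on the log2(FPKM + 1) scale. The difference of the knockdown effect between the lines was tested in the same fit. It called 0 of 30 members higher and 0 lower in H660 than in C4-2B MDVR, against 0% of genes. At an unadjusted p under 0.05 it had ACPP alone (1.15 log2 units, limma adjusted p = 0.985), against 2.11% of genes higher and 2.37% lower. A different response of KLK2, KLK3 or SLC45A3 in the 2 lines is thus not shown by this test, in which the spread comes from the siRNA pairs. KLK2 and KLK3 were at 0.113 FPKM or less in every H660 library, where log2(FPKM + 1) can hardly fall. For these genes the test therefore cannot compare the responses of the lines.

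A related receptor was detected in H660 only. NR3C1, the glucocorticoid receptor, which recognises a similar element, had 0 fragments in C4-2B MDVR and was at 4.73, 6.04 and 5.44 FPKM in H660 (2.67, limma adjusted p = 1.25e-05).

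The lineage factors differed in how far they were kept in H660. HOXB13 was at 160, 213 and 108 FPKM in C4-2B MDVR and 0.198, 0.184 and 0.336 FPKM in H660. FOXA1 was at 125, 103 and 123 FPKM against 79.0, 78.5 and 79.5 FPKM, a difference of −0.56 that passed the test but not the 2-fold rule (limma adjusted p = 0.00658). HOXB13 was highest with siRNA 1 and lowest with siRNA 2 in C4-2B MDVR, as were KLK3 and TMPRSS2, and FOXA1 was not.

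Of the 19 cofactor and chaperone genes reported here, NR3C1 included, 0 passed for the siRNAs in either line, as for 0% of all genes. Between the lines 5 were lower in H660 (FKBP4, GATA2, GRHL2, HOXB13 and HSP90AA1) and 2 higher (NR3C1 and the coactivator NCOA3), against 17.9% and 20.1% of all genes. FKBP4, another HSP90 cochaperone of steroid receptors, was at 123, 78.6 and 88.0 FPKM in C4-2B MDVR and 15.9, 15.1 and 16.1 FPKM in H660. GATA2, a pioneer factor, was at 29.9, 48.9 and 44.4 FPKM against 8.68, 8.24 and 7.80 FPKM. At an unadjusted p under 0.05 in C4-2B MDVR, GATA2 alone was higher and FKBP4 alone lower with the siRNAs, against 3.74% and 2.15% of all genes. Neither passed after adjustment. The remaining cofactors were NCOA1, NCOA2, NCOA4, NCOR1, EP300, CREBBP, KDM1A, TRIM24, PIAS1, HSP90AB1 and PTGES3, whose line differences ran from −0.84 (EP300) to 0.60 (PTGES3).

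**Figure D4:**
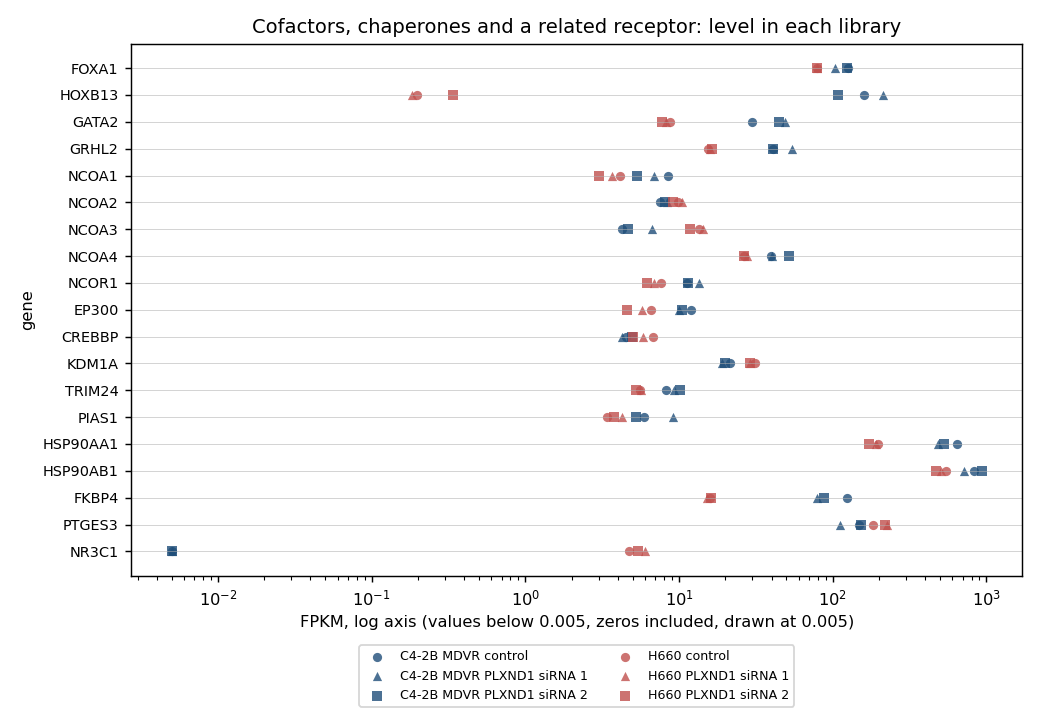
Level of the 19 cofactor and chaperone genes, NR3C1 included, in the 6 libraries, in FPKM on a log axis; blue marks C4-2B MDVR and red H660, and values below 0.005 are drawn at 0.005. NR3C1 is at 0 in C4-2B MDVR, whereas the FOXA1 points lie between 78.5 and 125 FPKM in both lines.

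Genes described as repressed by the receptor gave few measured members, with 2 of 5 tested. OPRK1, the kappa opioid receptor, was at 0.0336, 0.0692 and 0.0429 FPKM in C4-2B MDVR and 7.69, 7.67 and 7.62 FPKM in H660 (3.05, limma adjusted p = 5.26e-06). CAMK2N1, an inhibitor of CaM kinase II, was at 101, 155 and 67.2 FPKM against 9.45, 9.24 and 10.2 FPKM (−3.27, limma adjusted p = 0.000176). Its order in C4-2B MDVR, highest with siRNA 1 and lowest with siRNA 2, was that of KLK3 and TMPRSS2. UGT2B15, UGT2B17 and MET, below the level tested, were at most 1.46, 0.448 and 0.937 FPKM.

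Of 76 further androgen response genes that are not members, 73 were tested. In this list 28 were lower in H660, against 17.9% of all genes, and 15 higher, near the 20.1% of all genes. For the siRNAs 0 passed in either line, as for 0% of all genes. In C4-2B MDVR their median was 0.04 log2 units with siRNA 1 and −0.06 with siRNA 2. Those farthest below the control with both siRNAs there were genes of lipid synthesis: SCD, a desaturase, was at 290, 153 and 135 FPKM, and FADS1 and INSIG1 followed the same order of control above siRNA. Those farthest above were DNAJB9, HSD17B14 and PTK2B, with DNAJB9, a chaperone of the endoplasmic reticulum, at 8.64, 13.0 and 21.2 FPKM. In H660 the corresponding genes were TPD52, SPCS3 and DNAJB9 above, and ZMIZ1 and ABHD2 were among those below. TPD52 was at 15.5, 52.8 and 48.8 FPKM in the H660 control, siRNA 1 and siRNA 2 libraries. Of 67 genes of this list compared in H660, it was the 1 that was 2-fold higher with siRNA 1 and with siRNA 2, against 1.21% and 0.925% of all genes. ZMIZ1, a coregulator, was at 64.0, 48.0 and 45.9 FPKM there and ABHD2 at 23.6, 19.2 and 18.0 FPKM.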

How the data were processed

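Messenger RNA was sequenced as paired ends of 150 bases in 6 libraries. HISAT, Cufflinks and hg18 are named, without versions, per the submitters' processing notes. The authors deposited FPKM for 58735 gene IDs, all of them in GENCODE 29 (GRCh38), which gave names, coordinates and exon lengths. FPKM times exon length was a whole multiple of 1 step per library (tolerance 0.05 fragments) in 100% of genes above 0, which gave the fragments (17657328 to 24106919 per library). Against those totals the deposited values carry a further factor of 0.92 to 1.08 per library, whose source is not given in the sources used here.

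log2(FPKM + 1) was analysed with limma 3.58.1 in R 4.3.3 for 15638 genes with a mean of at least 1 FPKM in at least 1 line. The test was two-sided with an intensity trend and Benjamini-Hochberg adjustment over all of them, with a threshold of 0.05. siRNA effects came from a fit of 4 groups (2 residual degrees of freedom), in which each lone control is assumed to vary like the siRNA pairs, and line differences from an additive fit with line and treatment terms (3). Scripts were tested on simulated data. Intervals used SciPy 1.17.1 at 95%. Promoter sequences are RefSeq's (GRCh38.p14). The named genes are all 31 members, PLXND1, every gene of the cofactor and repressed lists, and of the further androgen response genes the 3 with the largest mean difference each way per line among those with the same sign for both siRNAs. A few genes that this rule takes are not reported here. The members, lists and tests were chosen with earlier results of these data known. Alternatives were a pseudocount of 0.1, no filter, quantile normalization, short RNAs and mitochondrial genes left out with rescaling, voom with TMM scaling on the recovered fragments, single libraries left out and a replicate block.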

Additional observations from a re-analysis of the deposited data

How the results depend on the processing

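No result changed direction among those that passed a test or the 2-fold rule. Over the alternatives, 20 to 22 members were lower and 2 to 3 higher in H660 (20 to 22 and 2 to 3 also when 1 library was left out), and the siRNA tests called 0 members in each line and between lines throughout. The third higher member, found only when a control was left out (an alternative chosen after seeing the data), was ACPP, at 1.10 log2 units against 0.71. The number lower changed through MPHOSPH9, near the 2-fold limit, and KCNN2, which is near it only with a pseudocount of 1 (−3.38 with 0.1, −7.28 with voom). Members 2-fold lower with siRNA 2 in C4-2B MDVR numbered 3 to 4 against the control and 6 to 7 against siRNA 1, and 0 were 2-fold higher. The median there ran from 0.07 to 0.19 with siRNA 1 and from −0.29 to −0.20 with siRNA 2. Members above the control with siRNA 1 and below it with siRNA 2 numbered 11 with a pseudocount of 0.1, 12 with quantile normalization and 13 with rescaling, against 11 as deposited. Rescaling moved the median of all genes with siRNA 2 from 0.04 to −0.07.

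The element was in 0 of 23 upstream sequences with 1 letter changed and in 4 with 3, against 1 with 2. Without the filter on low values, over 34007 genes, 33 were higher and 818 lower in C4-2B MDVR (0 and 0 with it), 47 and 829 in H660, and 684 and 688 for the difference between lines. None was a member. The genes added without the filter had a mean below 1 FPKM in both lines, and these calls are not read here as a response to the siRNAs. The siRNA numbers did not pair the libraries (correlation of −0.0043 between the lines in the difference of siRNA 2 and siRNA 1, over genes). In the fit with a replicate block for the siRNA number, 21 members were lower and 2 higher in H660, 0 were called for the siRNAs, and no call at 2-fold changed. The limma adjusted p of ACPP, which is under 2-fold, went from 0.0462 to 0.0551.

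With 1 control per line and 2 siRNAs that differ, the test cannot separate a response to PLXND1 loss from the difference between siRNAs. Fragment numbers limit the low members: TRPM8, MAF and PTGER4 in C4-2B MDVR and KLK2, KLK3, STEAP4, PMEPA1 and KCNN2 in H660.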
